A study of Homo sapiens with 6 samples.

Results

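The 8 genes described here are 6 human Schlafen genes of chromosome 17 (SLFN5, SLFN11, SLFN12, SLFN12L, SLFN13 and SLFN14) and the chromosome 7 neighbours SAMD9 and SAMD9L. They were chosen by symbol and not by a rule on their values, though earlier results of these data were known. They make up 8 of the 62710 genes of the FPKM table. RNA was sequenced from HT1080 cells, an established human fibrosarcoma line, in 2 groups of 3 libraries. The untreated group received no IFNβ, and the IFNβ-treated group received 20 ng/mL of human IFNβ for 24 h. The labels name no other agent or genetic change in either group. The labels do not say whether the 3 libraries of a group came from separate cultures, and the paper states independent biological replication only for its in vitro work in general, so the p-values measure the spread between these libraries, which may be technical in part.

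Proteins of both families act on transfer RNA. SLFN11, SLFN12, SLFN13 and SLFN14 carry a nuclease fold that cuts tRNA or ribosomal RNA, SLFN11 acting on tRNAs of leucine and serine, and SAMD9 cleaves the tRNA of phenylalanine. Loss of these tRNAs stalls ribosomes at the codons they read, which limits viral protein synthesis and, when the enzymes are overactive, slows the growth of the host cell. Type I interferon signals through the receptor IFNAR, the kinases JAK1 and TYK2 and a transcription factor complex, which binds the ISRE, a promoter element built from GAAA repeats. The measurements below are of the mRNAs of these factors, and neither tRNA nor protein was measured.

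RefSeq promoter stretches on GRCh38.p14, each of 250 bases before the transcription start, were matched by symbol for 5 of the 8 genes (SLFN11, SLFN12, SLFN12L, SAMD9 and SAMD9L). Shown are SAMD9 and SAMD9L, which rose most among the genes high enough to be tested, and SLFN11, the Schlafen gene whose level moved least. SLFN12L, not shown, had a larger ratio of mean FPKM than SAMD9, 19.4 against 17.1, but at most 0.106 FPKM. All 3 lie on the minus strand and are written 5′ to 3′, without the bases that GENCODE release 29 places inside the gene. Capitals mark ISRE-like matches (GAAA, any 2 bases, GAAA), GAS-like matches (TTC, any 3 bases, GAA), each searched on both strands, and stretches of 10 bases shared by SAMD9 and SAMD9L.
SAMD9 at chr7:93118024-93118229: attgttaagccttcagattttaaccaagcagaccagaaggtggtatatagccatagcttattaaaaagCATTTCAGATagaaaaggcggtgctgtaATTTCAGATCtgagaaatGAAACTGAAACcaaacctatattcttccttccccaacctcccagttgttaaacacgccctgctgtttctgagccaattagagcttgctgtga
SAMD9L at chr7:93148386-93148635: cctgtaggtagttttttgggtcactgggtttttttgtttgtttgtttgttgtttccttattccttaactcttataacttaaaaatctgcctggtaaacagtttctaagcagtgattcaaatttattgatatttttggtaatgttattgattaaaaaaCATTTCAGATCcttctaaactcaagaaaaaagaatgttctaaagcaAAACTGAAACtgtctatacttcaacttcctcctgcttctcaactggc
SLFN11 at chr17:35373702-35373871: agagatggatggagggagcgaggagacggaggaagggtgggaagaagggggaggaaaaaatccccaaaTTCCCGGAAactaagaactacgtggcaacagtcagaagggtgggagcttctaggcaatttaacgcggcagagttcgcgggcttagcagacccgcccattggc
The SAMD9 stretch held GAAACTGAAA, an ISRE-like match, from 136 to 127 bases before the start. SAMD9L had no ISRE-like match within its 250 bases. It shared with SAMD9 the 10 bases AAACTGAAAC, which stood from 135 to 126 bases before the start of SAMD9 and from 47 to 38 bases before that of SAMD9L. CATTTCAGAT and ATTTCAGATC were also present in both, apart from each other in SAMD9 and overlapping in SAMD9L. Sharing of this length was not limited to the pair, since SAMD9 had a run of 11 bases in common with SLFN12L. The longest run that SAMD9L had in common with a Schlafen stretch was shorter, 9 bases with SLFN12. The stretches shown were picked after the letters had been read. AAACTGAAAC was found in 44 of 35116 RefSeq promoter stretches of this length (0.125%), ATTTCAGATC in 15 (0.0427%) and CATTTCAGAT in 24 (0.0683%). Among the Schlafen genes, SLFN12L held the ISRE-like GAAATGGAAA from 126 to 117 bases before its start, overlapping the GAS-like TTCTGAGAA, and a further GAS-like match, TTCTCAGAA. These letters of SLFN12L lie inside the gene as GENCODE release 29 draws it, since its start there is farther upstream. SLFN11 held the GAS-like TTCCCGGAA from 182 to 174 bases before its start and no ISRE-like match, and SLFN12 held neither. ISRE-like letters occurred in 3.02% of all promoter stretches and GAS-like letters in 6.57%. A match describes the letters and is not a measured binding site.

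The values are FPKM, fragments scaled by gene length and by library size. The libraries held between 22848104 and 32915500 fragments, as recovered from the FPKM, and a gene of 1 kb with 1 fragment has 0.0304 to 0.0438 FPKM. ISG15 and IFIT1, which are strongly induced by type I interferon, were used to check the treatment labels, with means of 10.5 and 0.916 FPKM untreated against 1448 and 413 FPKM after IFNβ. The 10 mesenchymal markers checked, VIM and SPARC among them, were all expressed, with summed levels of 1491 to 1511 FPKM untreated and 1461 to 1511 FPKM after IFNβ, and none was a differentially expressed gene (DEG). The 5 epithelial markers summed to at most 0.0761 FPKM in any library. Schlafen genes are well known from leukocytes, and the 7 leukocyte markers summed to 1.17 to 1.39 FPKM untreated and 1.29 to 1.43 FPKM after IFNβ, nearly all of it CORO1A. The leukocyte marker PTPRC had 1 fragment in the untreated group and 11 after IFNβ, at most 0.0126 FPKM, and CD2 was listed at 0 in every untreated library. The 4 endothelial markers summed to 0.553 to 0.666 and 0.614 to 0.792 FPKM, mostly from PECAM1 and TEK, neither of them a DEG. CDH5 had 7 fragments in the untreated group and 43 after IFNβ, and VWF had 9 and 30, all at under 0.1 FPKM. The part of these traces in the results below was not tested.

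After 24 h of IFNβ, SAMD9L, SAMD9, SLFN5 and SLFN12 rose 34.5-fold, 17.1-fold, 4.02-fold and 2.94-fold in mean FPKM, and SLFN11 was not a DEG at 1.09-fold. SLFN12L, SLFN13 and SLFN14 had at most 0.106 FPKM in any library and were too low for this test, and SLFN12L and SLFN13 had more fragments in each IFNβ-treated library than in any untreated one. A DEG had to have a Benjamini-Hochberg adjusted p under 0.05 and to differ by 1 or more on the log2 scale, in a limma fit on log2(FPKM + 0.1) of the 20716 genes that averaged 0.1 FPKM or more. Of the 8 genes, 5 passed this filter, each also by its untreated mean alone, and 4 of these 5 were DEGs, all higher. Among all genes tested, 4.22% were DEGs and 3.49% were DEGs with a higher level after IFNβ. The median log2 fold change was 1.98 over the 5 genes and 0.00 over all genes tested. The IFNβ-treated libraries all lay above the untreated ones for the 5 tested genes, which was so for 22.3% of all genes tested. With 3 libraries against 3, an exact two-sided permutation test of a single gene cannot give a p under 0.10. In RNA from whole cultures, a change in the number of expressing cells and a change in RNA per cell cannot be told apart.

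**Figure D1:**
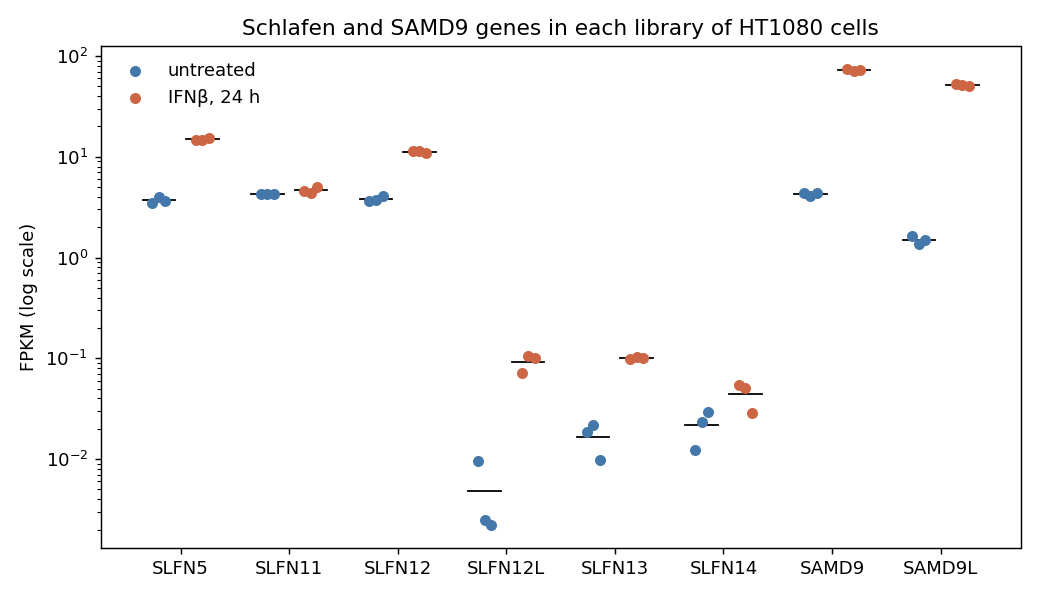
FPKM of the 8 genes (log scale) in the 3 untreated and 3 IFNβ-treated libraries, 1 point per library, with a line at the mean of each group. SAMD9 and SAMD9L lie at 50.7 FPKM or more after IFNβ, whereas SLFN12L, SLFN13 and SLFN14 lie at 0.106 FPKM or less in every library.

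In untreated cells, per kilobase, SLFN11 (mean 4.27 FPKM), SAMD9 (4.26), SLFN12 (3.82) and SLFN5 (3.70) followed each other closely, and the libraries of each neighbouring pair in this order overlapped. SAMD9L stood lower, at 1.49 FPKM, with no overlap with SLFN5. After IFNβ the order was SAMD9 (72.7 FPKM), SAMD9L (51.6), SLFN5 (14.9), SLFN12 (11.2) and SLFN11 (4.64), and no neighbouring pair among these 5 overlapped. SLFN13 (0.10 FPKM) and SLFN12L (0.0929 FPKM) overlapped each other, and SLFN14 (0.0445 FPKM) was lowest in mean.

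**Figure D2:**
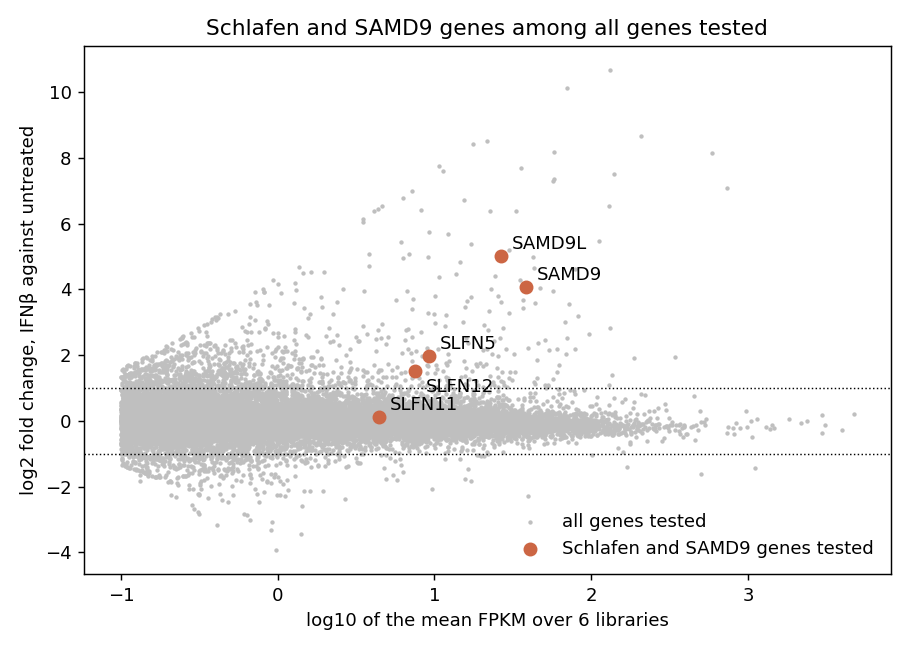
log2 fold change against the log10 of the mean FPKM over 6 libraries for the 20716 genes tested (grey) and the 5 genes of the families that passed the filter (orange), with dotted lines at a log2 fold change of 1 and -1. SAMD9L at 5.02 and SAMD9 at 4.06 lie in the sparse upper part, and SLFN11 at 0.11 lies within the grey band.

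SAMD9 (ENSG00000205413), an antiviral factor that cleaves tRNA and restricts poxviruses, spans 93099513 to 93118023 of chromosome 7 on the minus strand. It had 4.36, 4.05 and 4.37 FPKM untreated and 74.7, 71.0 and 72.5 FPKM after IFNβ. The groups were far apart, with the lowest treated library at 71.0 and the highest untreated one at 4.37 FPKM. The log2 fold change was 4.06 ± 0.04 (SE, adjusted p = 1.2e-08 by limma), rank 54 of all genes tested. SAMD9L (ENSG00000177409), its paralog and a suppressor of myeloid growth, spans 93130055 to 93148369 on the same strand. It had 1.64, 1.36 and 1.48 FPKM untreated and 52.9, 51.1 and 50.7 FPKM after IFNβ, again without overlap. On the log2 scale it rose by 5.02 ± 0.07 (SE, adjusted p = 5.6e-08 by limma), rank 35 of all genes tested.

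SAMD9 exceeded SAMD9L in every library, but by less after IFNβ. The ratio of their FPKM was 2.65, 2.98 and 2.95 without IFNβ and 1.41, 1.39 and 1.43 with it. No treated library came near the untreated range, and the log2 ratio fell by 0.96 (exact two-sided permutation p = 0.1, the smallest this design can give). SAMD9L thus made up 25.1% to 27.4% of the summed FPKM of the pair before treatment and 41.2% to 41.9% after it. With a pseudocount of 1 in place of 0.1 the log2 ratio fell by 0.59. The coding sequences of the pair were identical at 71.8% of aligned bases, and no stretch of 150 bases, the read length, in the 1 transcript searched for each was found in a transcript of another gene.

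SLFN11 (ENSG00000172716) cuts tRNA and blocks stressed replication forks, and its level is widely used as a marker of sensitivity to DNA-damaging drugs. It lies from 35350305 to 35373701 of chromosome 17 on the minus strand. Its levels were 4.30, 4.25 and 4.26 FPKM untreated and 4.56, 4.36 and 5.01 FPKM after IFNβ. The treated libraries all lay above the untreated ones, by a margin as small as that between 4.30 and 4.36 FPKM. The log2 fold change was 0.11 with a 95% confidence interval from -0.02 to 0.25 (limma adjusted p = 0.18), an interval that ends far below the threshold of 1. Of the 150-base stretches of its transcript, 7.71% were also found in SLFN13, so reads could be split between these genes, and the coding sequences were 86.9% identical. SLFN13 held 13 fragments untreated and 79 after IFNβ against 2181 and 2355 for SLFN11.

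SLFN12 (ENSG00000172123, 35411060 to 35433283, minus strand) is a ribonuclease that becomes active and kills cells when small molecules glue it to the phosphodiesterase PDE3A. It measured 3.61, 3.76 and 4.09 FPKM untreated and 11.3, 11.5 and 10.9 FPKM after IFNβ, with all treated libraries above all untreated ones. The log2 fold change was 1.53 ± 0.05 (SE, adjusted p = 4.9e-06 by limma). PDE3A itself was under the filter, with 69 fragments in the untreated group and 62 in the IFNβ-treated group.

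SLFN5 (ENSG00000166750, 35243036 to 35273655, plus strand) is a nuclear member of the family known as a repressor of viral and interferon-driven transcription, and is not known as a tRNA nuclease. Its levels were 3.47, 3.99 and 3.64 FPKM untreated and 14.5, 14.8 and 15.3 FPKM after IFNβ. The groups did not overlap, and the log2 fold change was 1.98 ± 0.06 (SE, adjusted p = 2e-06 by limma). The FPKM ratio of SLFN5 to SLFN11 was 0.807, 0.938 and 0.853 untreated and 3.19, 3.40 and 3.05 after IFNβ, a difference of 1.87 on the log2 scale (exact two-sided permutation p = 0.1, again the smallest possible). SLFN5 was therefore below SLFN11 in each untreated library and above it in each treated one.

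The summed FPKM of the 6 Schlafen genes was 11.4 to 12.05 in the untreated libraries and 30.7 to 31.4 after IFNβ, and its make-up shifted. SLFN11 gave 35.3% to 37.6% of the sum before treatment and 14.1% to 15.9% after it. SLFN5 went from 30.2% to 33.1% before treatment to between 47.4% and 48.6%. SLFN12 gave 31.2% to 34.0% untreated and 34.7% to 37.1% after IFNβ. The other 3 genes together never reached 1% of the sum.

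**Figure D3:**
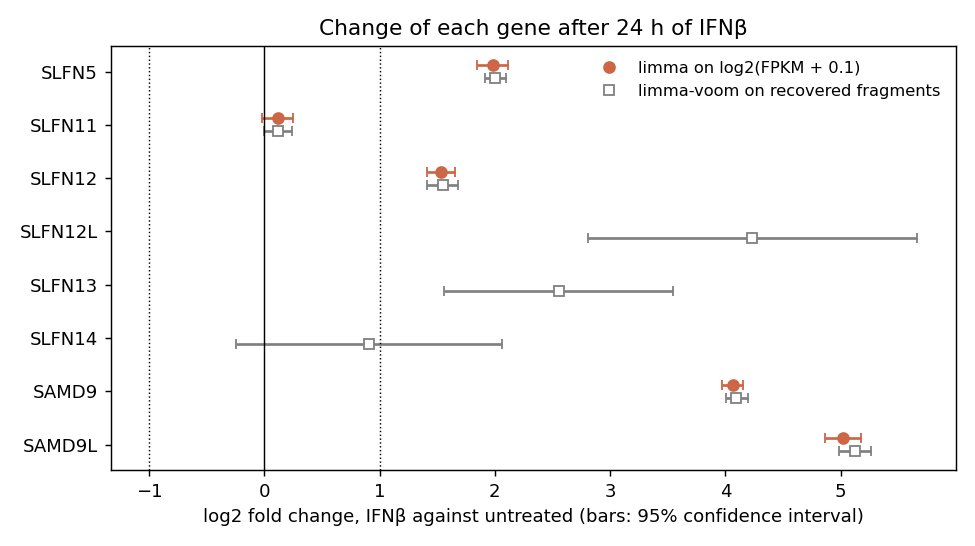
log2 fold change of each gene after IFNβ with its 95% confidence interval, from limma on log2(FPKM + 0.1) (filled circles, the 5 genes past the filter) and from limma-voom on recovered fragments (open squares, all 8 genes), with dotted lines at 1 and -1. The intervals of SLFN12L and SLFN13 lie above 1, whereas that of SLFN14 runs from -0.25 to 2.06. SLFN12L entered the limma-voom fit only through its treated libraries.

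SLFN12L, SLFN13 and SLFN14 had a mean of under 0.1 FPKM and were not tested with the other genes, so they are given as fragments. SLFN12L (ENSG00000205045, 35464249 to 35537861, minus strand), the closest relative of SLFN12 with a less studied function, had 3, 1 and 1 fragments untreated and 30, 36 and 40 after IFNβ. Its rate of fragments per library was 21.4 times higher after IFNβ, with a 95% exact interval of 8.88 to 67.2. SLFN13 (ENSG00000154760, 35435096 to 35448837, minus strand), a nuclease that cuts tRNA and ribosomal RNA, had 4, 6 and 3 fragments untreated and 28, 24 and 27 after IFNβ, a ratio of rates of 6.13 with an interval of 3.39 to 12. Neither gene's libraries overlapped between the groups. SLFN14 (ENSG00000236320, 35548125 to 35558098, minus strand), a ribosome-bound nuclease known from platelets and their precursors, had 2, 5 and 7 fragments untreated and 12, 9 and 6 after IFNβ. Here the groups overlapped, and the ratio of rates was 1.95 with an interval of 0.985 to 4.02. The intervals cover counting error only.

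A fit of limma-voom on the recovered fragments of all genes with at least 10 of them, added after the data had been seen, covered all 8 genes. It gave log2 fold changes of 4.23 for SLFN12L (adjusted p = 3.2e-05), 2.56 for SLFN13 (adjusted p = 0.00017) and 0.91 for SLFN14 (adjusted p = 0.23). This made 6 of the 8 genes DEGs, against 5.74% of all genes in that fit. SLFN12L, with 5 fragments untreated and 106 after IFNβ, passed the filter only through the treated group, so its call is no support. In the limma fit with no filter on low values, 4 of the 8 genes were DEGs, against 884 of all 35303 genes in it. There SLFN12L, SLFN13 and SLFN14 had log2 fold changes of 0.88 (adjusted p = 0.0083), 0.78 (adjusted p = 0.013) and 0.25 (adjusted p = 0.34), under the threshold of 1. The pseudocount of 0.1 is about as large as the highest values of these 3 genes. For SLFN13, 4.41% of the 150-base stretches of its transcript were shared with SLFN11. SLFN12L and SLFN12 were 87.0% identical over aligned coding bases, and no stretch of 150 bases of the SLFN12L transcript searched, which has 2752 bases, was found in SLFN12. The gene lengths implied by the FPKM were 13640 bases for SLFN12L and 7169 bases for SLFN14 against 4811 and 2889 bases of exon in GENCODE release 29, so the authors' gene models for these genes include more sequence than those used here for positions.

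The surroundings of the genes were read from the same fit, for every annotated gene within 200 kb. On chromosome 17 there were 44 such genes, of which 18 were tested, and 8 of these were DEGs, all higher after IFNβ. Of all genes tested, 3.49% were DEGs with a higher level. TOMM20P2, AC015911.3 and AC015911.7, which are among the 8, had no untreated fragment and passed the filter only through the treated libraries. They could therefore only be called higher. None of the 7 protein-coding neighbours tested was a DEG, and their log2 fold changes ran from -0.97 to 0.12 with a median of -0.11. On chromosome 7, 2 of 4 neighbours were tested, neither was a DEG, and their log2 fold changes were 0.08 and 0.10. All 8 neighbouring DEGs were noncoding genes or pseudogenes beside or inside a Schlafen gene that had more fragments after IFNβ.

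**Figure D4:**
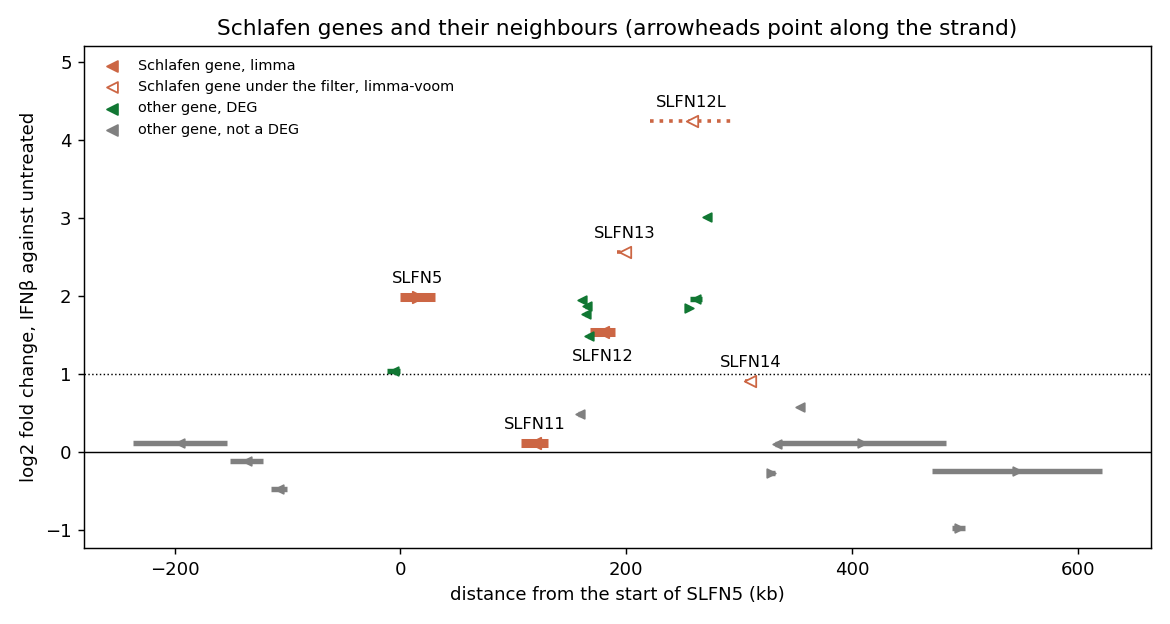
log2 fold change of the Schlafen genes and of the other genes tested within 200 kb of them, against distance from the start of SLFN5 in kb. Bars span each gene, arrowheads point along its strand, and open symbols are Schlafen genes under the filter. The 8 neighbouring DEGs (green) lie next to SLFN5, next to SLFN12 or inside SLFN12L. The neighbours nearest to SLFN11, itself at 0.11, were too low to be tested and are not shown.

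Of these, 4 lay on the strand of SLFN12 and between 831 and 6686 bases beyond its 3′ end. AC060766.1, the nearest, had 55, 54 and 71 fragments untreated and 175, 152 and 185 after IFNβ, with a log2 fold change of 1.49 (limma adjusted p = 0.00012). AC060766.7, AC060766.5 and AC060766.4 had log2 fold changes of 1.87, 1.77 and 1.95, each above the 1.53 of SLFN12. The span of AC060766.5 lies within that of AC060766.7, which also overlaps AC060766.1, so these calls may not be separate. AC022916.1 starts 72 bases from SLFN5 on the opposite strand. It had 35, 28 and 34 fragments untreated and 83, 63 and 82 after IFNβ, a log2 fold change of 1.04 (limma adjusted p = 0.0057) just over the threshold, and was no DEG without untreated replicate 2, without untreated replicate 3 or without IFNβ replicate 3, after quantile normalization or with a pseudocount of 1.

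The other 3 lay within introns of SLFN12L and had no fragment in any untreated library. TOMM20P2, a pseudogene on the strand of SLFN12L, had 8, 12 and 6 fragments after IFNβ. Its mean treated FPKM was 2.93 times what an assumed 3 fragments in each untreated library would give. AC015911.3, annotated as sense intronic, had 8, 5 and 8 fragments (2.28 times that assumed level). AC015911.7, on the opposite strand, had 16, 2 and 8 fragments (2.71 times that level in the mean, though the library with 2 fragments lay under the assumed 3). It was a DEG under only 9 of 18 alternatives, losing the call, or its place in the test, when any of 5 libraries was left out. Across the 8 genes, 7 annotated genes overlapped a Schlafen gene and none overlapped SAMD9 or SAMD9L. The antisense genes AC015911.5 and AC015911.6, which share exon sequence with SLFN12L and SLFN14, were listed at 0 in all libraries, and AC015911.8 was too. E2F3P1 had 1 fragment in 1 library. Whether the counting used strand is not given in the sources used here, so reads of overlapping genes cannot be told apart.

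Genes that act upstream or alongside these factors were read from the same fit. Of 9 genes that carry or control the IFNβ signal from the receptor to promoters, 4 were DEGs, all higher, against 3.49% of all genes tested. The median log2 fold change of the list was 0.72. USP18, which removes ISG15 and damps the receptor, rose from a mean of 0.693 ± 0.157 FPKM to 65.1 ± 0.712 FPKM (S.D., n = 3 each), which is a log2 change of 6.38 (limma adjusted p = 5.2e-07). The transcription factors STAT2 and IRF9 rose as well, by 3.35 and 2.79 on the log2 scale. IRF1, a transcription factor that binds similar letters, rose by 1.21 but was no DEG with a pseudocount of 1. The other 5 genes of this list had log2 fold changes between -0.20 and 0.72.

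The mRNAs of proteins for tRNA cleavage, repair, charging and modification moved little, and tRNA itself was not measured. None of 19 genes of tRNA cleavage and repair was a DEG, against 4.22% of all genes tested. Their log2 fold changes ran from -0.26 to 0.09 with a median of -0.12. An adjusted p under 0.05 without regard to size was reached by 0 of them for a higher and 9 for a lower level, against 15.2% and 17.5% of all genes tested. The largest change was that of TSEN15, a subunit of the tRNA splicing endonuclease, from 6.78 ± 0.113 to 5.63 ± 0.161 FPKM (S.D., n = 3 each), which is a log2 change of -0.26 (limma adjusted p = 0.0017). None of 14 genes that charge or modify the tRNAs of phenylalanine, leucine and serine was a DEG either, with a median of -0.19. In this list, 1 gene had an adjusted p under 0.05 for a higher and 8 for a lower level. Its largest change was in FARSB, the beta subunit of the phenylalanine tRNA synthetase, which went from 20.8 ± 0.0960 to 15.9 ± 0.662 FPKM (S.D., n = 3 each), which is a log2 change of -0.39 (limma adjusted p = 0.00028).

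**Figure D5:**
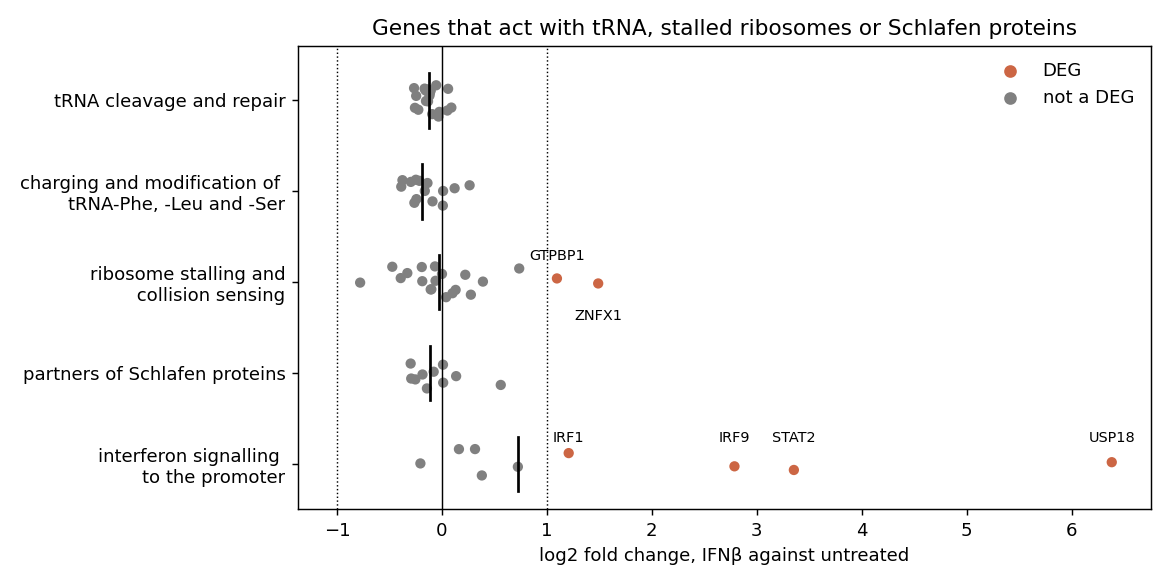
log2 fold change of each tested gene of 5 lists (1 point per gene, spread vertically for visibility), with DEGs in orange and named, a black line at the median of each list and dotted lines at 1 and -1. DEGs appear in 2 of the 5 lists, with 2 in the ribosome stalling list and 4 in the interferon signalling list.

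Among 20 genes that sense or resolve stalled ribosomes, 2 were DEGs, both higher, and the median log2 fold change was -0.03. Of all genes tested, 3.49% were DEGs with a higher level. In this list, 8 genes had an adjusted p under 0.05 for a higher and 6 for a lower level, against 15.2% and 17.5% of all genes tested. GTPBP1, a GTPase of translational quality control, rose from a mean of 7.62 ± 0.244 FPKM to 16.4 ± 0.410 FPKM (S.D., n = 3 each), which is a log2 change of 1.10 (limma adjusted p = 3.4e-06). ZNFX1, better known as a helicase that binds viral RNA, rose from a mean of 15.8 ± 0.141 FPKM to 44.6 ± 0.973 FPKM (S.D., n = 3 each), which is a log2 change of 1.49 (limma adjusted p = 1.2e-07). Both kept the call under all 18 alternatives. GTPBP2 and the ribotoxic stress kinase MAP3K20 were picked after their values were seen, with log2 fold changes of 0.74 and -0.78 that did not reach the threshold of 1. Of 12 reported partners of Schlafen proteins, 10 were tested and none was a DEG, against 4.22% of all genes tested. Their median log2 fold change was -0.11. PDE3A and PDE3B, the phosphodiesterases that hold SLFN12, were the 2 under the filter. CUL4B, a scaffold of the ubiquitin ligase that SLFN11 engages, had the largest change of this list, 0.56 on the log2 scale (limma adjusted p = 0.00011).

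For each of the 5 tested genes, the 3 genes most like it were found among 11991 genes that averaged 1 FPKM or more, by the Euclidean distance of their 6 libraries on the log2 scale after subtraction of the untreated mean. Genes nearest to SAMD9 were PARP14, SAMHD1 and GCA at distances of 0.119, 0.195 and 0.237, and those nearest to SAMD9L were PLEKHA4, OAS3 and TNFSF13B at 0.209, 0.231 and 0.254. SLFN5 lay nearest to B2M, LGALS3BP and TRIM38 at 0.126, 0.173 and 0.198. SLFN12 lay nearest to XDH, SP100 and CHROMR at 0.124, 0.125 and 0.127. SLFN11 lay nearest to ANKRD13D, DGCR6L and LYN at 0.0579, 0.0630 and 0.0701. The log2 fold changes of these genes were 3.96 to 4.05 for the neighbours of SAMD9, 4.99 to 5.07 for SAMD9L, 1.93 to 1.96 for SLFN5, 1.49 to 1.58 for SLFN12 and 0.10 to 0.11 for SLFN11. Their closeness to the genes' own fold changes follows from the choice by distance and is no further result. SLFNL1, a relative outside the 8 genes, had 0.652 ± 0.143 FPKM untreated and 0.841 ± 0.0412 FPKM after IFNβ (S.D., n = 3 each), which is a log2 change of 0.34 (limma adjusted p = 0.16).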

How the data were processed

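HT1080 cells were measured in 3 untreated and 3 IFNβ-treated libraries by paired-end sequencing (reads of 150 bases) of mRNA-enriched RNA. The authors deposited FPKM per Ensembl gene and library, with no pooling. The submitters' processing notes name fastp, HISAT2, StringTie and GRCh38, without saying which tool counted. The FPKM behave as scaled whole fragments, which StringTie coverage estimates need not be. Annotation, gene lengths, strandedness and tool versions are not given in the sources used here. The RNA sequencing methods of the paper name mouse IFNβ, and the labels human IFNβ.

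Fragments were recovered as whole multiples (tolerance 0.001) for 100% of 35303 genes above 0, adding up to 99.25% to 99.29% of each library's number. Annotated gene length gave them for 16427 genes. For the other 18876, SLFN5, SLFN12, SLFN12L, SLFN14 and SAMD9L among them, a multiplier was searched until every library came out whole. That search cannot fail for a gene above 0 in only 1 library, so the 100% is no check in itself. Pairs of libraries of a group differed by more than counting error (chi-square per degree of freedom 1.76 to 3.16). Differences were tested with limma 3.58.1 (R 4.3.3; lmFit, eBayes with trend) on log2(FPKM + 0.1) for genes that averaged 0.1 FPKM or more, without a covariate and with Benjamini-Hochberg adjustment over all of them. Such fold changes understate those of low genes. Single ratios were compared by exact permutation. Positions are from GENCODE release 29 on GRCh38, which lacks 4436 of the gene IDs. Python 3.11.15, pandas 2.3.3, scipy 1.17.1 and Biopython 1.88 were used. The fit was also run on simulated fragments, with changes given only to genes that averaged 1 FPKM or more. Its outcome is not given here, and recovery of changes in lower genes was not tried.

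Genes and lists were chosen with earlier results of these data known, and some listed genes are not reported here. Named were all 8 genes, each list's DEGs and largest change, overlapping neighbours and neighbouring DEGs, and the 3 genes most like each. Alternatives were other pseudocounts, filters, scalings and thresholds, no trend, a replicate block, limma-voom, and each library left out.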

Additional observations from a re-analysis of the deposited data

How the results depend on the processing

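SLFN5, SLFN12, SAMD9 and SAMD9L were DEGs and SLFN11 was not under all alternatives. Their log2 fold changes ran from 1.76 to 2.04, 1.35 to 1.58, 3.81 to 4.10, 4.40 to 5.12 and 0.06 to 0.16, so none changed sign. With each library left out in turn, the change in the log2 ratio of SAMD9 to SAMD9L lay between -1.01 and -0.93 that of SLFN5 to SLFN11 between 1.82 and 1.92, and the number of DEGs among all genes, 875 as reported, between 809 and 867. That number was 304 with a pseudocount of 1, 425 among genes averaging 1 FPKM or more, 6778 without the fold threshold and 1362 with limma-voom on genes with at least 10 recovered fragments, the last chosen after seeing the data. The cause was not tested beyond what fewer or more genes tested and a lower threshold bring by construction. Without the fold threshold, 9, 9, 14, 7 and 8 genes passed in the lists of tRNA cleavage, tRNA charging, stalling, Schlafen partners and interferon signalling. DEGs among the neighbours, 8 as reported, numbered 4 at 1 FPKM or more, 3 with a pseudocount of 1 and 6 to 8 with a library left out. Of all DEGs, 82.5% were higher, against 46.5% without the fold threshold, and 73.4% after quantile normalization, which shifted the median of all genes to -0.06 on the log2 scale.

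The replicate numbers were not shown to pair the libraries, since same-numbered libraries correlated at 0.014, 0.0228 and 0.0307 in their deviations from the group means. A replicate block gave 829 DEGs among all genes and 4 among the 8 genes. Depth limits SLFN12L, SLFN13 and SLFN14, which had at most 40 fragments in any library.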
